A study of Mus musculus with 30 samples.

Results

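The transcripts described here are 10 genes of macrophages: the 3 chains of complement C1q (C1qa, C1qb, C1qc), the receptor gene Csf1r, and Cd68, Mrc1, Lyz2, Cd14, Fcgr1 and Mpeg1. They were taken by symbol from the annotation of the array platform, which named 19 probes for 8 of the 10, against 11463 genes tested in all. C1qa and Fcgr1 were not analysed here. C1qc was read by 10 probes, Csf1r by 3, and the other 6 genes by 1 probe each. RNA came from the inguinal mammary gland of mice 19 weeks old, all on the 129sv background, with 1 array per gland. The groups were 9 Her2/Neu+/IFNAR1-/- glands, 6 Her2/Neu+ glands, 8 IFNAR1-/- glands and 7 WT glands. Her2/Neu is an oncogenic receptor of the ERBB family, and its promoter in these mice and the state of the glands at collection are not given in the labels. IFNAR1-/- mice lack a chain of the type I interferon receptor, and the labels name no tissue to which the loss is limited. The series was set up to ask what the body's own type I interferon does in carcinogenesis driven by this oncogene.

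Macrophages lie around the ducts and in the fat of the mammary gland, where they take part in duct growth and in the clearance of dying cells. Most of them depend on the receptor encoded by Csf1r and on its ligands, CSF1 and IL-34. They are a main source of C1q, the recognition unit of the classical complement pathway, which binds antibody complexes and dying cells and is built from A, B and C chains. The other genes serve uptake and killing: Mrc1 encodes the mannose receptor, an endocytic receptor of resident macrophages, Cd68 a lysosomal glycoprotein, Lyz2 a lysozyme that cuts bacterial cell walls, and Mpeg1 a pore-forming protein. Cd14 is a co-receptor that passes bacterial lipopolysaccharide to Toll-like receptor 4, and Fcgr1 encodes the high-affinity receptor for immunoglobulin G.

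The 3 C1q genes lie next to each other on chromosome 4 in RefSeq, and the promoters of C1qb, C1qc and Mrc1 are shown because they are the genes whose array values reached the upper end of the scale. The 250 bases before each start site are given 5′ to 3′ on the gene's strand from RefSeq (GRCm38.p6): C1qb at chr4:136886201-136886450, minus strand, C1qc at chr4:136892915-136893164, minus strand, and Mrc1 at chr2:14229164-14229413, plus strand. Capitals mark GAGGAA, a core of sites for the macrophage factor PU.1, on either strand, so that TTCCTC is the same letters on the other strand.
C1qb: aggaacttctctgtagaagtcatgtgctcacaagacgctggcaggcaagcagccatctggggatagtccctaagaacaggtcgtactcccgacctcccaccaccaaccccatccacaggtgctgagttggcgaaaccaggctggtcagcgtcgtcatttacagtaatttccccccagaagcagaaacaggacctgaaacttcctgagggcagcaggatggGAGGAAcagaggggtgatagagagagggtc
C1qc: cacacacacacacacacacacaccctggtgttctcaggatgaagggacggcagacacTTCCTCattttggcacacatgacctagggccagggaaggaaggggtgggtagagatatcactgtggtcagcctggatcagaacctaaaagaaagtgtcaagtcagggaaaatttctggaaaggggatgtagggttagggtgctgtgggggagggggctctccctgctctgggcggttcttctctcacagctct
Mrc1: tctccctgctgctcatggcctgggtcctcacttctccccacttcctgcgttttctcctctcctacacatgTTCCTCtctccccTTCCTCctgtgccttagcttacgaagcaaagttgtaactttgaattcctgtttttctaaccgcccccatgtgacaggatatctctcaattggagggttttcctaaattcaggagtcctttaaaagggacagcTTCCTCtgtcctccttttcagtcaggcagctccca
The letters began 30 bases before the start of C1qb and 193 bases before that of C1qc. In Mrc1 they occurred 3 times, beginning 180, 167 and 35 bases before the start. Of the 7 genes with a window of 300 bases in the RefSeq table (250 before the start and 50 after it), 5 held GAGGAA on either strand, namely C1qb, C1qc, Cd68, Mrc1 and Fcgr1, against 28.3% of 32851 windows of that length. GAAANNGAA, the core of an interferon-stimulated response element, was in 0 of the 7 windows, against 8.56% of all. TTCNNNGAA, a sequence bound by STAT factors that reads alike on both strands, was in 1 of the 7, that of Fcgr1, against 8.3% of all. A match describes the letters and no binding was measured.

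Each value is a log2 ratio of gland RNA to a universal mouse RNA that was the same on all 30 arrays, so it can be compared between glands but not between genes. The table stops at 6, which is 64-fold, and a value of 6 is a lower bound. Other values recur digit for digit on an array. They are called repeated values here, 75% of them lay within 0.3 of 0, and how they were made is not stated. Of the 160 spots with a value for these genes in Her2/Neu+/IFNAR1-/- glands, 16.9% were repeated and 20.6% were at the limit. Of 108 spots in Her2/Neu+ glands these shares were 24.1% and 16.7%, of 146 in IFNAR1-/- glands 6.16% and 5.48%, and of 128 in WT glands 13.3% and 3.12%. The groups that carry the oncogene thus held the larger share of values with limited resolution, and this is given beside the results it touches. In whole-gland RNA, fewer macrophages and less RNA per macrophage cannot be told apart. Changes were fitted with limma over all 11463 genes, with Benjamini-Hochberg adjustment, and passed at an adjusted p under 0.05.

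Csf1r was the only one of the 8 genes that passed in any of 7 contrasts: it fell with the oncogene. Its ratio ran from 0.10 over a median of 0.41 to 1.44 in Her2/Neu+/IFNAR1-/- glands and from -0.90 over -0.03 to 0.06 in Her2/Neu+ glands. In IFNAR1-/- glands the lowest, median and highest were 0.61, 1.08 and 1.92, and in WT glands they were -0.09, 0.99 and 2.06. Every Her2/Neu+/IFNAR1-/- gland stood above every Her2/Neu+ gland, but by a narrow gap. It lay between 0.102 on Her2/Neu+/IFNAR1-/- sample 109, with 2 of 3 spots repeated, and 0.063 on Her2/Neu+ sample 120, with 1 of 3 repeated. All Her2/Neu+ glands lay below 6 of the 7 WT glands, and the Her2/Neu+/IFNAR1-/- glands overlapped the IFNAR1-/- and WT glands. Averaged over both receptor states, the change with the oncogene was -0.75 ± 0.20 (SE, 95% interval -1.15 to -0.35), or 1.69-fold lower, with an adjusted p of 0.0377 by limma. Such a call was made for 2.57% of all genes in this contrast, and for 1 of these 8.

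Taken apart by receptor state, the change of Csf1r was -0.45 ± 0.26 in Her2/Neu+/IFNAR1-/- against IFNAR1-/- glands (adjusted p = 0.35 by limma) and -1.06 ± 0.29 in Her2/Neu+ against WT glands (adjusted p = 0.144). The test of the difference between them gave 0.61 ± 0.39 and an adjusted p of 0.583. Her2/Neu+/IFNAR1-/- glands held 0.81 ± 0.28 more than Her2/Neu+ glands (adjusted p = 0.285). Absence of overlap in that pair was seen for 0.131% of all genes, in either direction, and for 1 of the 8, Csf1r, with its narrow gap. In order of the group means, IFNAR1-/- glands (1.09 ± 0.41, SD, n = 8) stood first, WT glands (0.89 ± 0.71, n = 7) next, then Her2/Neu+/IFNAR1-/- glands (0.65 ± 0.51, n = 9), and Her2/Neu+ glands last (-0.17 ± 0.37, n = 6). IFNAR1-/- did not differ from WT glands past the test (0.20 ± 0.27, adjusted p = 0.91), nor Her2/Neu+/IFNAR1-/- from Her2/Neu+ glands, and the step between WT and Her2/Neu+/IFNAR1-/- glands was smaller than either SD and was not tested.

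The 3 Csf1r probes all pointed down with the oncogene, by -0.97 to -0.31, and none passed alone. Repeated values made up 12 of 25 Csf1r spots in Her2/Neu+/IFNAR1-/- glands and 11 of 18 in Her2/Neu+ glands, against 4 of 22 in IFNAR1-/- glands and 6 of 19 in WT glands. With repeated values treated as missing, the change was -0.50 and still passed (adjusted p = 0.0157, limma over 6454 genes). That fit rested on fewer spots and fewer probes. It had no Csf1r value for Her2/Neu+ sample 119, where all 3 spots were repeated. The change with the oncogene no longer passed under 6 of 19 other settings, with adjusted p from 0.0515 to 0.589. Nor did it pass when any 1 of 12 of the 30 arrays was left out, with adjusted p up to 0.0725. It was below 0 in all of those fits.

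**Figure D1:**
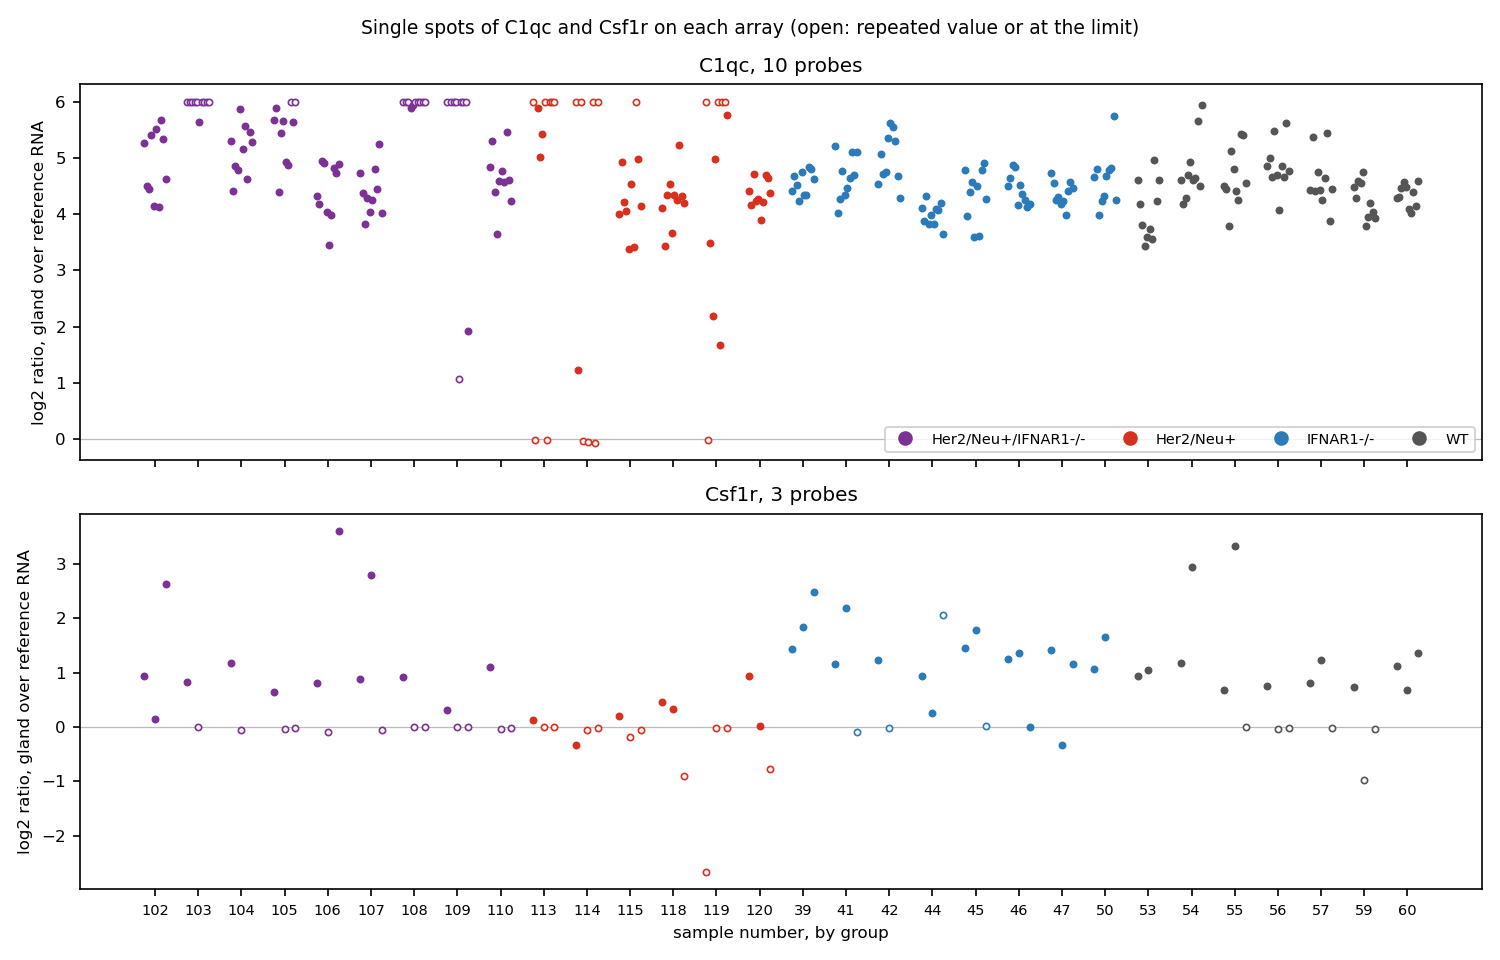
Log2 ratio of every single spot of C1qc (10 probes, top) and Csf1r (3 probes, bottom) on the 30 arrays, with arrays in order of group and sample number and open circles for repeated values or values at the limit of 6. The C1qc spots lie close together in IFNAR1-/- and WT glands and spread between 0 and 6 on some Her2/Neu+ arrays, and many Csf1r spots near 0 are repeated values.

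The C chain of C1q stood 0.94 ± 0.25 higher in Her2/Neu+/IFNAR1-/- than in Her2/Neu+ glands (95% interval 0.43 to 1.45, 1.92-fold), but the adjusted p by limma was 0.169 and the gene did not pass. C1qc was measured on all 30 arrays. The lowest, median and highest ratios were 4.40, 5.00 and 5.98 in Her2/Neu+/IFNAR1-/- glands and 3.14, 4.30 and 4.63 in Her2/Neu+ glands. They were 4.00, 4.50 and 4.98 in IFNAR1-/- glands and 4.07, 4.61 and 4.87 in WT glands. The Her2/Neu+/IFNAR1-/- glands reached highest and overlapped every other group. Without the oncogene, the change of C1qc was -0.02 ± 0.24 in IFNAR1-/- against WT glands (95% interval -0.52 to 0.48). The difference between both effects of receptor loss was 0.96 ± 0.35 (adjusted p = 0.483).

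How closely the 10 C1qc probes agreed depended on the array. Their SD on 1 array lay between 0.20 and 0.57 on the 15 IFNAR1-/- and WT arrays, against 0.04 to 2.00 on Her2/Neu+/IFNAR1-/- arrays and 0.26 to 3.09 on Her2/Neu+ arrays. At the limit of 6 stood 26 of 89 C1qc spots in Her2/Neu+/IFNAR1-/- glands and 14 of 58 in Her2/Neu+ glands, against 0 of 80 in IFNAR1-/- and 0 of 70 in WT glands, all 40 of them on 8 arrays. On Her2/Neu+ sample 114 some C1qc probes were at 6 while others were repeated values near 0. With repeated values missing, the difference between Her2/Neu+/IFNAR1-/- and Her2/Neu+ glands was 0.41 (adjusted p = 0.434), with values at the limit missing it was 1.43 (adjusted p = 0.313), and without the 6 arrays with most repeated values it was 0.50 (adjusted p = 0.433). Of the 10 probes, 8 pointed up in this comparison, with changes from -0.31 to 2.79, and 1 passed when each probe was fitted by itself (adjusted p = 0.0495).

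The B chain was read by 1 probe on 23 arrays, with no group set apart from the rest. C1qb had values of 3.94 (lowest), 6 (median) and 6 (highest) in 6 Her2/Neu+/IFNAR1-/- glands and of 2.70, 5.28 and 6 in 6 Her2/Neu+ glands. In 6 IFNAR1-/- glands they were 4.27, 5.68 and 6, and the 5 measured WT glands had 5.77, 1.41, 1.99, 5.01 and 4.24. All 4 groups overlapped. Of these C1qb values, 4 in Her2/Neu+/IFNAR1-/- glands, 2 in Her2/Neu+ glands and 2 in IFNAR1-/- glands were at the limit, while 2 WT values were repeated ones. The change in IFNAR1-/- against WT glands was 1.76 ± 0.71 (adjusted p = 0.684 by limma), and it leaned on those 2 repeated values, since a fit that dropped repeated values gave 0.44 ± 0.65 (adjusted p = 0.922). The C1qb mean was 4.85 ± 1.36 (SD, n = 6) in Her2/Neu+ glands, against 3.68 ± 1.90 (n = 5) in WT glands with the repeated values and 5.01 ± 0.76 (n = 3) without them, so that the order of these groups turned. Over the 23 arrays with both genes, the Pearson correlation of C1qb with C1qc was -0.14, and -0.33 within groups, as a description of values that share arrays and of which many are bounds.

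**Figure D2:**
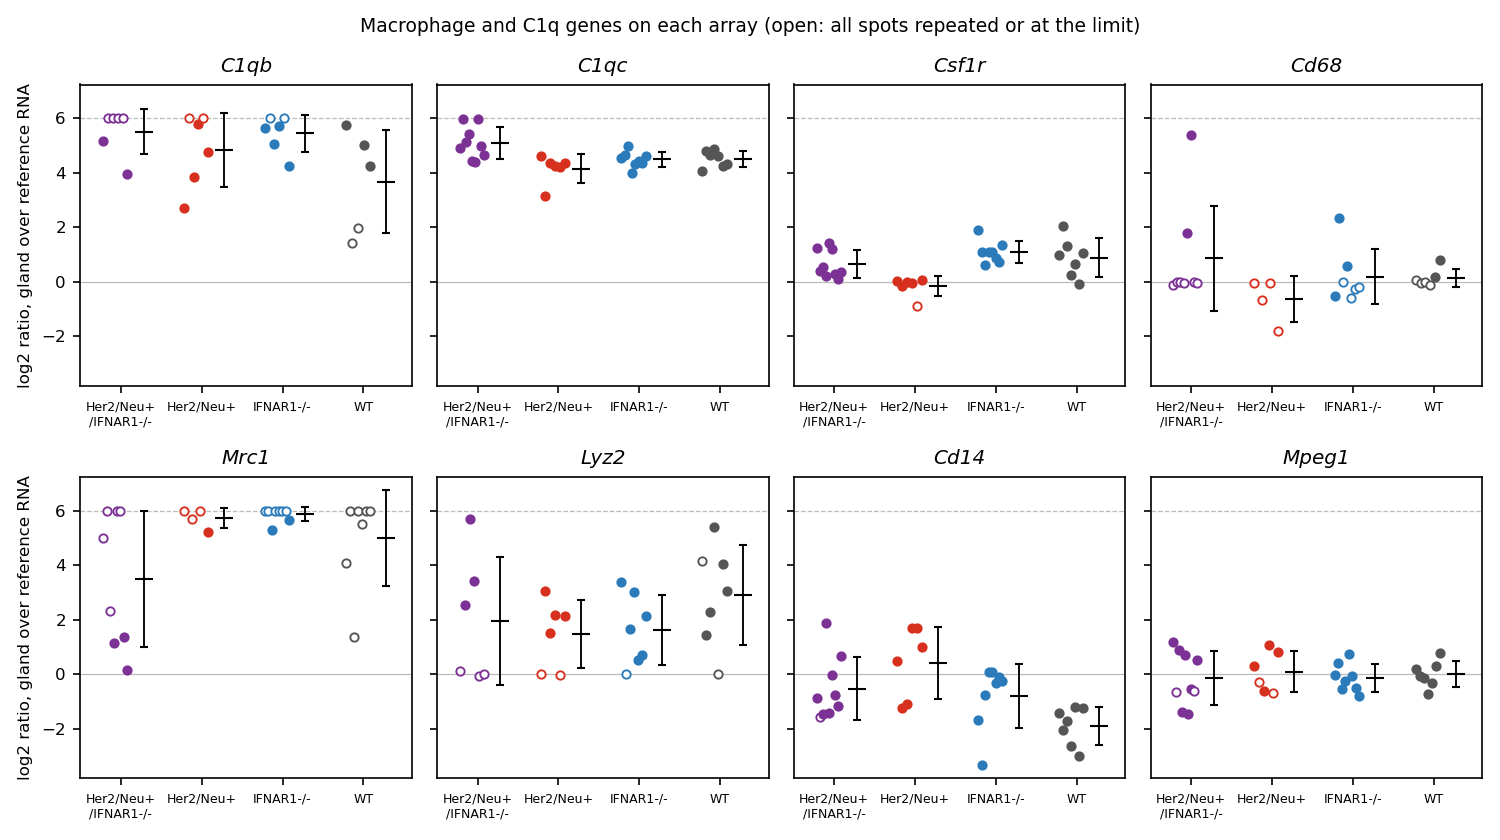
Log2 ratio of gland over common RNA for the 8 measured genes, 1 point per gland, by group, with the mean and SD beside the points and open circles where every spot of the gene was repeated or at the limit of 6. The Csf1r mean is lowest in Her2/Neu+ glands, the Cd14 mean is lowest in WT glands, and C1qb and Mrc1 run into the limit.

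Mrc1, the mannose receptor, was at or near the upper limit in most glands. The 8 measured Her2/Neu+/IFNAR1-/- glands spanned 0.14 to 6 with a median of 3.67. The 4 measured Her2/Neu+ glands had 6, 5.71, 6 and 5.23, IFNAR1-/- glands had 5.30, 6 and 6 as lowest, median and highest, and WT glands had 1.35, 6 and 6. The Her2/Neu+/IFNAR1-/- group was thus the only one with a median below 5, and it overlapped each of the others. Its Mrc1 ratio lay -2.38 ± 0.78 from that of IFNAR1-/- glands (adjusted p = 0.109 by limma) and -2.24 ± 0.96 from that of Her2/Neu+ glands (adjusted p = 0.392). Over the 27 arrays with a value, 6 Mrc1 values were repeated and 15 were at the limit, so that 21 of them carry only a bound or a repeated value.

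Cd68 was a repeated value on 18 of the 25 arrays that measured it, and most of its points lay close to 0. The lowest, median and highest were -0.13, -0.01 and 5.38 in Her2/Neu+/IFNAR1-/- glands, and the 4 measured Her2/Neu+ glands had -0.03, -0.68, -0.03 and -1.82. They were -0.59, -0.18 and 2.33 in IFNAR1-/- glands and -0.11, 0.04 and 0.78 in WT glands. A single gland stood far above the rest in Her2/Neu+/IFNAR1-/- and in IFNAR1-/- glands, and all groups overlapped. No contrast of Cd68 had an adjusted p below 0.456.

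Lyz2, the lysozyme of macrophages and neutrophils, varied widely between glands of each group. It had -0.06, 1.32 and 5.68 as lowest, median and highest in Her2/Neu+/IFNAR1-/- glands and -0.03, 1.83 and 3.04 in Her2/Neu+ glands. The values were -0.01, 1.65 and 3.38 in IFNAR1-/- glands and 0.01, 3.06 and 5.39 in WT glands. WT glands had the highest median and all groups overlapped. The change in Her2/Neu+ against WT glands was -1.43 ± 0.91 (adjusted p = 0.553), the smallest adjusted p of any contrast for Lyz2.

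Mpeg1 was measured on all 30 arrays, and its largest change in any contrast was smaller than the largest of each other gene. Its lowest, median and highest ratios were -1.46, -0.55 and 1.16 in Her2/Neu+/IFNAR1-/- glands, -0.70, 0.01 and 1.06 in Her2/Neu+ glands, -0.81, -0.16 and 0.75 in IFNAR1-/- glands and -0.74, -0.06 and 0.79 in WT glands. The 4 ranges all overlapped, and that of the Her2/Neu+/IFNAR1-/- glands was the widest. The 7 changes of Mpeg1 lay between -0.24 and 0.09, with adjusted p of 0.816 or more.

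Cd14, the co-receptor for lipopolysaccharide, had its lowest mean in WT glands and its highest in Her2/Neu+ glands. Its lowest, median and highest values were -1.57, -0.89 and 1.87 in Her2/Neu+/IFNAR1-/- glands and -1.26, 0.73 and 1.71 in Her2/Neu+ glands. In IFNAR1-/- glands they were -3.32, -0.29 and 0.09, and in WT glands -3.02, -1.74 and -1.20. All but the lowest Her2/Neu+ value lay above all WT values, and both groups with receptor loss overlapped the others. Only 1 of the 30 Cd14 values was repeated and 0 were at the limit. The change in Her2/Neu+ against WT glands was 2.32 ± 0.59, or 5-fold (95% interval 1.11 to 3.54), with an adjusted p of 0.107 by limma, so that it did not pass. Against IFNAR1-/- glands the change in Her2/Neu+/IFNAR1-/- glands was 0.25 ± 0.52 (adjusted p = 0.835), and the test of the difference between both oncogene effects gave -2.07 ± 0.79 (adjusted p = 0.483). Averaged over both receptor states the change was 1.29 ± 0.39 (adjusted p = 0.0765). The Her2/Neu+ against WT comparison of Cd14 passed in 1 of 30 fits that left out an array, that without Her2/Neu+ sample 115 (2.63, adjusted p = 0.0302). It passed in 2 of 20 other settings: array weights (2.60, adjusted p = 0.00867) and repeated and limit values missing (adjusted p = 0.0439). Elsewhere the adjusted p by limma reached 0.222 on leaving out an array and 0.505 in the other settings.

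The partners of Cd14 in sensing lipopolysaccharide showed no call of their own. Among 9 measured genes of 12 listed for endotoxin and Toll receptors, 8 were higher and 1 was lower with the oncogene, 0 passed, and the median change was 0.40, against 0.07 over all genes. Lbp, the serum protein that hands lipopolysaccharide to CD14, had a change of 1.12 ± 0.37 (adjusted p = 0.0961). In the same averaged contrast the values were 0.68 ± 0.36 for Ly96 (adjusted p = 0.309), the accessory chain of Toll-like receptor 4, and 0.37 ± 0.23 for Tlr4 itself (adjusted p = 0.404). Taken apart by receptor state, Tlr4 had 0.93 ± 0.31 in Her2/Neu+/IFNAR1-/- against IFNAR1-/- glands (adjusted p = 0.105) and -0.20 ± 0.35 in Her2/Neu+ against WT glands (adjusted p = 0.88), while Ly96 had 0.04 ± 0.50 (adjusted p = 0.98) and 1.31 ± 0.51 (adjusted p = 0.285) in those contrasts.

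Over all contrasts, few genes passed, among these 8 as among all. At an unadjusted p under 0.05 in limma's fit, 3 of the 8 (C1qc and Csf1r higher, Mrc1 lower) were found in Her2/Neu+/IFNAR1-/- against Her2/Neu+ glands, against 11.2% of all genes, and 2 (C1qc higher, Mrc1 lower) in Her2/Neu+/IFNAR1-/- against IFNAR1-/- glands, against 18.5%. In Her2/Neu+ against WT glands 2 were found (Cd14 higher, Csf1r lower), against 12.1%, and in IFNAR1-/- against WT glands 1 was found (C1qb higher), against 6.87%. For the averaged oncogene effect the count was 2 (Cd14 higher, Csf1r lower), against 18.8%. For receptor loss averaged over both oncogene states it was 3, all higher (C1qb, C1qc and Csf1r), against 8.62%. For the interaction it was 3 (C1qc higher, Mrc1 and Cd14 lower), against 9.62%. After adjustment 0 of the 8 passed in Her2/Neu+/IFNAR1-/- against Her2/Neu+ glands (0.0785% of all genes passed), in Her2/Neu+/IFNAR1-/- against IFNAR1-/- glands (1.31%), in Her2/Neu+ against WT glands (0.131%), in IFNAR1-/- against WT glands (0.0262%), for averaged receptor loss (0.0698%) and for the interaction (0.0174%). These contrasts share groups and are not independent of each other. With so few calls in general, a count of 0 for these genes is near the background.

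**Figure D3:**
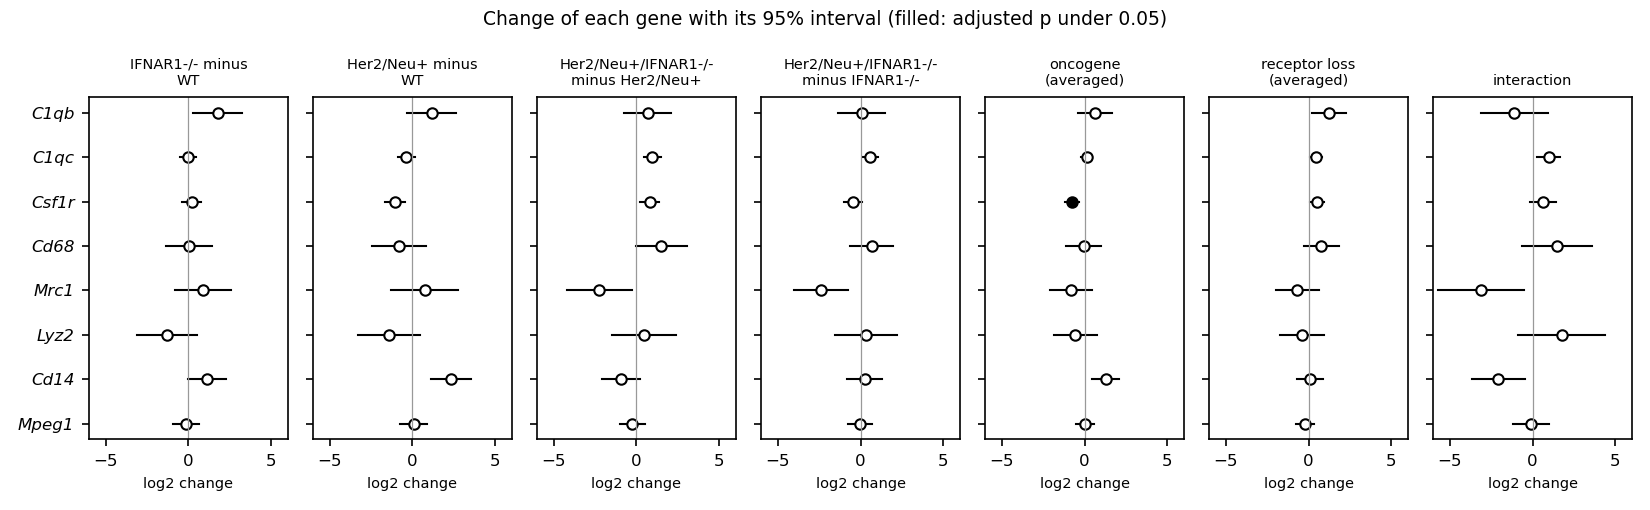
Log2 change of each of the 8 genes (rows) with its 95% interval in the 7 contrasts (panels), filled where the adjusted p by limma is under 0.05. The single filled point is Csf1r for the oncogene averaged over both receptor states, at -0.75.

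Of receptor loss, 5 of the 8 genes were higher and 3 lower on average over both oncogene states, with a median change of 0.27, against 0.02 over all genes. The averaged changes were 1.22 ± 0.49 for C1qb (adjusted p = 0.488, and 0.56 ± 0.42 with repeated values missing), 0.46 ± 0.17 for C1qc (adjusted p = 0.463) and 0.51 ± 0.20 for Csf1r (adjusted p = 0.47). Skeletal muscle markers were higher in the same contrast in 6 of 6, with a median of 1.44 and 0 calls. Their mean per array reached 4.38 to 5.10 on IFNAR1-/- samples 41, 42 and 44 and 4.18 on Her2/Neu+/IFNAR1-/- sample 106, while the highest was 0.84 in Her2/Neu+ and -0.01 in WT glands. Without those 3 IFNAR1-/- arrays the averaged changes were 1.19 for C1qb, 0.45 for C1qc and 0.56 for Csf1r. That fit kept Her2/Neu+/IFNAR1-/- sample 106, and the part of muscle in these changes was not tested. For the oncogene, 4 were higher and 4 lower, with a median of -0.01. The 8 genes thus lay on both sides of 0 in both averaged contrasts.

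The ligand of the receptor moved the other way, but the group means of both genes lay nearer 0 with the oncogene, where most repeated values lie. Csf1, read by 12 probes, averaged -1.29 ± 0.33 in Her2/Neu+/IFNAR1-/- glands and -1.18 ± 0.31 in Her2/Neu+ glands, against -1.71 ± 0.23 in IFNAR1-/- glands and -1.74 ± 0.19 in WT glands (SD, n = 9, 6, 8 and 7). The lowest, median and highest values were -1.74, -1.29 and -0.61 in Her2/Neu+/IFNAR1-/- glands, -1.49, -1.30 and -0.74 in Her2/Neu+ glands, -1.91, -1.76 and -1.20 in IFNAR1-/- glands and -1.91, -1.76 and -1.34 in WT glands. Most glands with the oncogene lay above most of those without it. IFNAR1-/- sample 47 (-1.20) and WT sample 59 (-1.34) stood higher than many oncogene glands. Csf1 rose with the oncogene by 0.49 ± 0.12 (adjusted p = 0.0284 by limma). Repeated values were 13 of 108 Csf1 spots in Her2/Neu+/IFNAR1-/- and 8 of 72 in Her2/Neu+ glands, against 6 of 96 in IFNAR1-/- and 3 of 84 in WT glands. The Csf1 call held under 9 of 19 other settings, and was lost without the 6 arrays with most repeated values (0.31, adjusted p = 0.196) and without Her2/Neu+ sample 113 (0.46, adjusted p = 0.0543) or 119 (0.45, adjusted p = 0.0534). Ccl7, a chemokine that draws monocytes, rose by 2.03 ± 0.39 (adjusted p = 0.00537), with group means of -1.45 ± 0.90 in Her2/Neu+/IFNAR1-/- and -1.31 ± 0.99 in Her2/Neu+ glands, against -3.65 ± 1.43 in IFNAR1-/- and -3.17 ± 1.01 in WT glands. Of the Ccl7 values, 4 of 9, 3 of 6, 4 of 8 and 2 of 7 were repeated in these groups. Its means too lay nearer 0 with the oncogene. Among the 8 measured genes of 12 listed for macrophage growth and monocyte recruitment, these were the 2 that passed, 3 were higher and 5 lower, and the median was -0.11. Il34, the other ligand, had a change of -0.45 ± 0.51 (adjusted p = 0.655).

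Pf4, a chemokine found in platelets, their precursors and many tissue macrophages, was the only 1 of 19 measured genes among 33 further macrophage genes to pass, and it fell with the oncogene like Csf1r. Its means were -1.39 ± 0.66 in Her2/Neu+/IFNAR1-/- and -2.63 ± 1.23 in Her2/Neu+ glands, against -0.71 ± 0.58 in IFNAR1-/- and -1.12 ± 0.21 in WT glands. The change was -1.10 ± 0.26 (adjusted p = 0.0256), and no Pf4 value was repeated. Of the other genes of that list 14 were higher and 4 lower, with a median of 0.31 over the 19. Adgre1, which encodes the macrophage surface protein F4/80, was among those that did not pass, with 0.37 ± 0.31 (adjusted p = 0.541). Of 10 measured activation genes, 8 were higher, 2 were lower and 0 passed, with a median of 0.17. Chil3, a chitinase-like protein of alternatively activated mouse macrophages, had 0.93 ± 0.27 (adjusted p = 0.0586).

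**Figure D4:**
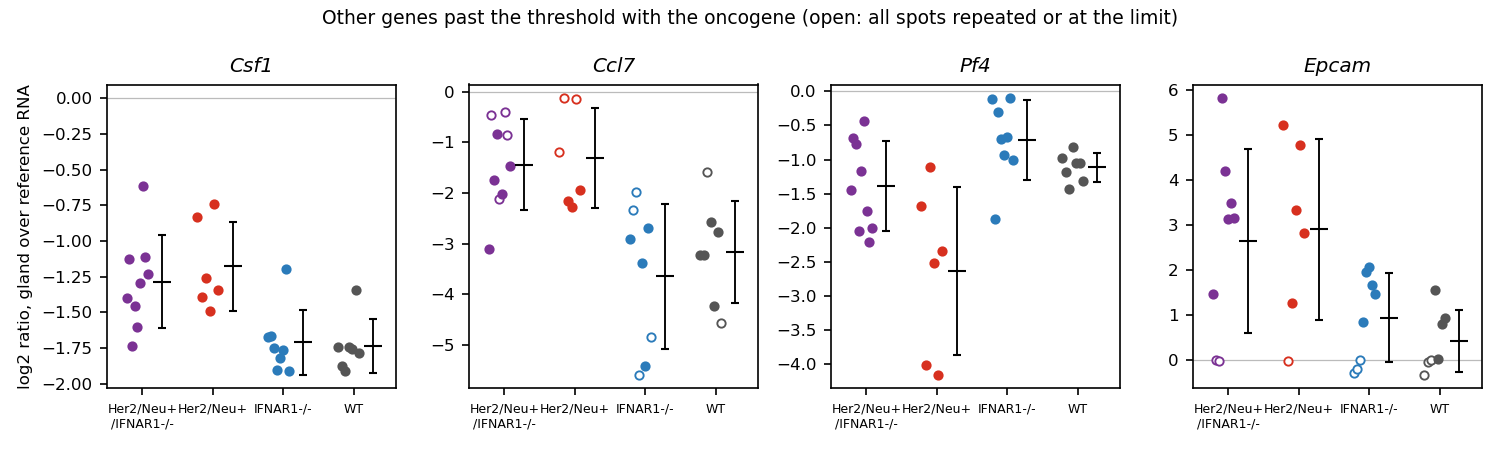
Log2 ratio of gland over common RNA for Csf1, Ccl7, Pf4 and Epcam, 1 point per gland, by group, with the mean and SD beside the points and open circles where every spot was repeated or at the limit. Csf1, Ccl7 and Epcam lie higher and Pf4 lower in the groups that carry the oncogene, with overlap between groups.

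The rest of the complement system gave no call. Of 13 measured genes of the classical pathway, its regulators and C3, 6 were higher and 7 lower with the oncogene, 0 passed, and the median was -0.06. In Her2/Neu+/IFNAR1-/- against Her2/Neu+ glands 12 of the 13 were higher (median 0.24), against 6770 of all 11463 genes (median 0.11). In Her2/Neu+ against WT glands 11 of the 13 were lower (median -0.33), against 5896 of all 11463 (median -0.02). Of the 13, 0 passed in either contrast. These contrasts share the Her2/Neu+ glands. Cd93, a surface protein of endothelial and myeloid cells once described as a C1q receptor, had 2.34 ± 0.62 in Her2/Neu+/IFNAR1-/- against Her2/Neu+ glands (adjusted p = 0.169), the same direction as C1qc. Of 5 measured genes of the alternative, lectin and terminal pathways, 2 were higher, 3 lower and 0 passed, with a median of -0.24.

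Of the markers of other cells, 1 passed in the same contrast, and the part of these markers in the results on macrophage genes was not tested. Epcam, an adhesion protein of epithelial cells, rose by 2.10 ± 0.55 (adjusted p = 0.0388) and was the 1 call among 8 measured luminal markers, of which 6 were higher. It was read by 1 probe. Repeated Epcam values were 2 of 8 in Her2/Neu+/IFNAR1-/-, 1 of 6 in Her2/Neu+, 3 of 8 in IFNAR1-/- and 3 of 7 in WT glands. The mean of these luminal markers on an array had a lowest, median and highest value of 0.59, 2.74 and 3.48 in Her2/Neu+/IFNAR1-/- glands, -0.10, 2.65 and 3.20 in Her2/Neu+ glands, 0.41, 2.79 and 3.34 in IFNAR1-/- glands and 1.26, 1.84 and 2.73 in WT glands. The same values for 5 endothelial markers were 0.99, 3.27 and 3.87 in Her2/Neu+/IFNAR1-/- glands, 1.28, 2.98 and 3.98 in Her2/Neu+ glands, 2.88, 3.57 and 3.92 in IFNAR1-/- glands and 3.06, 3.57 and 3.94 in WT glands. Kdr, the main receptor for vascular endothelial growth factor on endothelium, had -0.57 ± 0.19 (adjusted p = 0.0933). Median changes with the oncogene were 0.24 over 4 neutrophil, 0.31 over 4 dendritic cell, 0.35 over 3 mast cell, 0.07 over 5 T and NK cell, 1.00 over 3 B cell, -0.45 over 5 endothelial, -0.05 over 9 adipocyte and -0.37 over 6 skeletal muscle markers, with 0 calls in any of them. The smallest p in these lists belonged to S100a8 (1.14 ± 0.41, adjusted p = 0.124) for neutrophils, Itgax (0.94 ± 0.44, adjusted p = 0.248) for dendritic cells, Mcpt4 (0.51 ± 0.28) for mast cells, Cd3d (-1.02 ± 0.74) for T cells, Cd22 (1.00 ± 0.45, adjusted p = 0.22) for B cells, Adipor2 (-0.42 ± 0.22) for adipocytes and Pvalb (1.13 ± 0.82) for muscle. Adipoq, the adipocyte hormone adiponectin, stood at the limit of 6 on all 30 arrays, so the fat of the gland was represented on every array. The interferon-stimulated genes stood apart: 23 of 23 measured were higher with the oncogene, 11 passed, and the median was 1.17. The 6 with the smallest p, Oas1a, Oasl2, Ifit3, Rtp4, Oas2 and Oasl1, which encode antiviral proteins or their relatives, rose by 1.90 (Oasl1) to 3.28 (Oas1a). Taken apart by receptor state, 23 of 23 were higher in Her2/Neu+/IFNAR1-/- against IFNAR1-/- glands (median 1.23, 7 passed). In Her2/Neu+ against WT glands 23 of 23 were higher too (median 1.36, 2 passed). As checks on the labels, 0 of these 23 genes were higher and 23 lower with receptor loss averaged over both oncogene states, with a median of -0.71, 9 of them at an unadjusted p under 0.05 and 0 after adjustment. Ifnar1 averaged 1.04 ± 1.23 in Her2/Neu+/IFNAR1-/- and 0.77 ± 1.45 in Her2/Neu+ glands, against 0.20 ± 0.89 in IFNAR1-/- and 0.42 ± 0.92 in WT glands. It did not pass in any contrast, nor did Ifnar2 or Erbb2, and where the Ifnar1 probe lies relative to the deleted part is not stated. Erbb2 had 0.32 ± 0.28 in Her2/Neu+ against WT glands and 0.33 ± 0.26 in IFNAR1-/- against WT glands. Its values thus gave no check on the oncogene label.

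**Figure D5:**
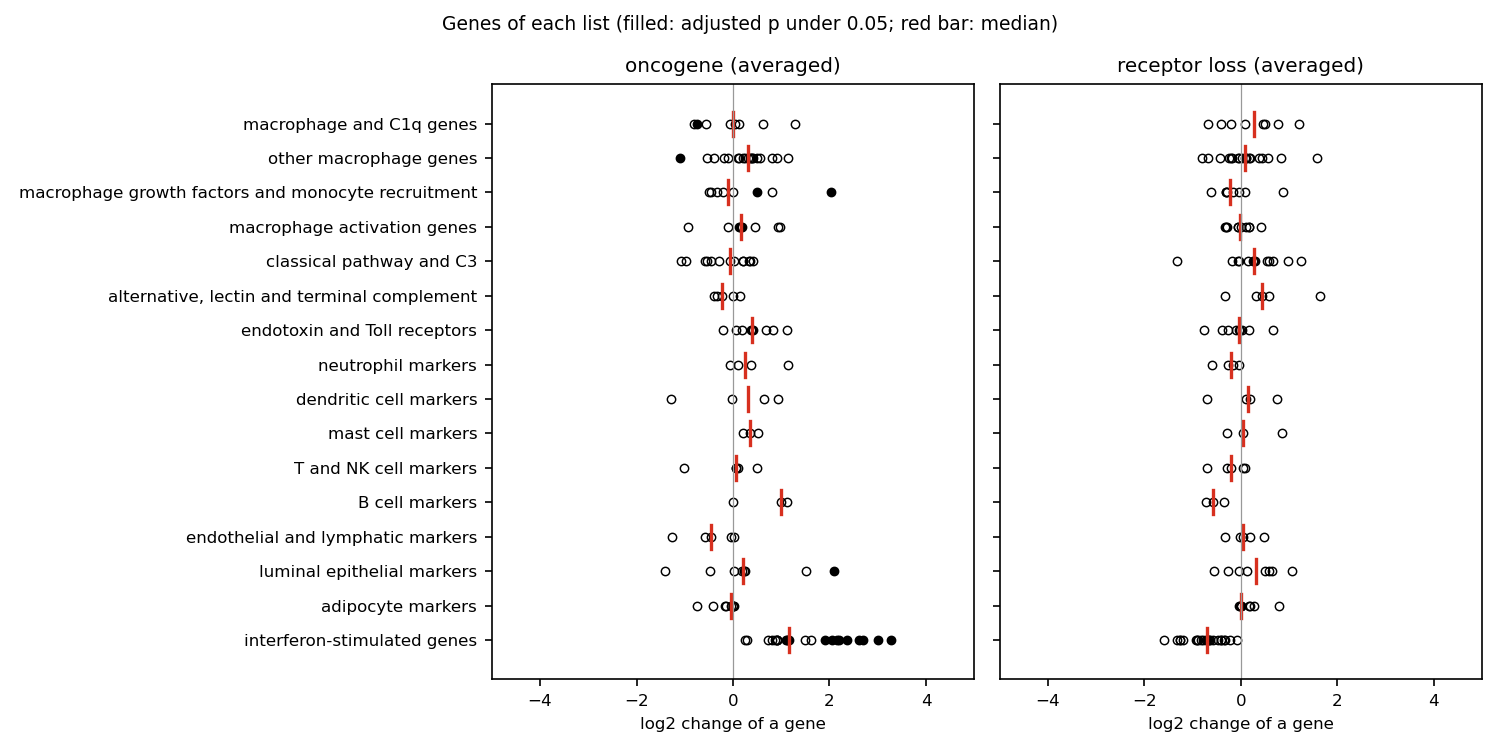
Log2 change of each measured gene of the macrophage genes described here and of related lists (rows), for the oncogene averaged over both receptor states and for receptor loss averaged over both oncogene states, with a red bar at the median and filled points where the adjusted p by limma is under 0.05. Crowded open points can look dark. The 8 genes spread on both sides of 0, with Csf1r the filled point at -0.75.

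Across arrays no pair of the 8 genes was closely correlated, but many values were repeated or at the limit. Of the 28 pairs, each over 20 or more arrays, 0 had a Pearson r of a size over 0.5. The lowest r was -0.45 (C1qc with Mrc1, 27 arrays) and the highest 0.27 (Csf1r with Cd68, 25 arrays). Most Mrc1 and Cd68 values and many C1qb and Csf1r spots were repeated or at the limit. A low r in pairs with these genes thus cannot show whether they vary together. Cd14 with Mpeg1, which have few such values, had r = -0.08 over 30 arrays. Csf1r and Cd14 had r = -0.38 over 30 arrays, and -0.12 within groups. A C1q profile was made from the centred values of C1qb and C1qc, averaged on the 23 arrays with both and taken from C1qc alone on 7. The gene most like it, among 10942 genes with a value on at least 24 arrays, was Fam76a (r = 0.66, and 0.53 within groups, 30 arrays). Rab3a (r = 0.60), Tnxb (0.60), Cd1d2 (0.60), Adcy9 (0.59), Mia (0.59), Limk1 (0.58), Ccl11 (0.57), Fxyd3 (0.56) and Islr (0.55) came next. The least like were Fas (r = -0.57), Caskin2 (-0.57), Dtd2 (-0.56), Rmnd5a (-0.55) and Thumpd1 (-0.55). Over the 23 arrays with both chains the order changed: Fam76a had r = 0.69 and the rank 3, while Islr had r = 0.50 and the rank 98. These values describe arrays that also share group, array set and number of repeated values. The genes named are the ends of a ranking of 10942 and were not tested against chance, and C1qb and C1qc themselves had r = -0.14.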

How the data were processed

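Gland RNA (Cy5) and universal mouse RNA (Cy3) were hybridised together, per the labels. The values were deposited by the authors as log ratios, and are taken as log2 ratios of gland over universal RNA: the base was inferred from the limit of 6 and the direction from the dyes. Normalization, blank rule and filters are not given in the sources used here. Arrays held 17485 to 20801 values of 20896 probes, and array medians lay between -0.118 and -0.003. The table holds no intensities, so how far a signal stood over background is not known and precision rests on array number.

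Symbols came from the platform annotation, with 17376 probes named by 1 gene and 3520 by none. A probe had to be filled on 50% or more of each group's arrays (16247 named probes were), and the probes of a gene were averaged (11463 genes). All 30 arrays entered 1 fit with 4 group means, made with limma 3.58.1 in R 4.3.3 (lmFit, eBayes, two-sided, Benjamini-Hochberg). The averaged contrasts take the mean of both simple effects. Motifs were searched on both strands. The labels number separate samples, and p-values reflect only the spread between those samples.

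The members and lists were chosen with earlier results of these data known. Named beside the members were up to 6 genes of each list past the threshold (smallest p first), otherwise the one with the smallest p in a contrast described, a few genes of known role (Tlr4, Il34, Adgre1 and Adipoq, chosen after their values were seen), Ifnar1, Ifnar2 and Erbb2, and the 10 genes most and 5 least like C1q.

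Alternatives were quantile normalization, filters, probe choice, missing repeated or limit values, array weights, block number, inferred slide, array set, and omission of each array in turn. Membership of the 8 slides and of the 2 sets of 15 arrays was inferred, since the labels do not give it. Not 1 such slide holds both groups of a pairwise contrast, so slide and group cannot be told apart there. In the averaged contrasts, the only slides with both states were those of Her2/Neu+/IFNAR1-/- sample 102 and IFNAR1-/- sample 41. Slide and the averaged effects can thus hardly be told apart either. In simulated data, 100 genes among 11463 were changed at each size. Genes changed 4-fold were called in 76% for Her2/Neu+/IFNAR1-/- minus Her2/Neu+ and 60% for Her2/Neu+ minus WT. Genes changed 2-fold were called in 22% and 17%. No rate was obtained for the averaged contrasts. Of the measured spots of the macrophage genes described here, 14.6% were repeated and 11.6% at the limit. Whether the rates hold for genes with such values was not tested.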

Additional observations from a re-analysis of the deposited data

Results flagged for a closer look

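Of 32 sets of 4 to 9 values of 1 gene in 1 group, 6 held a value whose gap to its neighbour was a large part of the whole range. Chance gives about 1 in 20 for independent, normally distributed values. Many values here were repeated or at the limit of 6, so that rate need not hold and no excess is claimed. C1qc stood at 3.14 on Her2/Neu+ sample 114, below the next value of 4.21, on the array where its probes disagreed most. Csf1r stood at -0.90 on Her2/Neu+ sample 119, below the next value of -0.14, and all 3 of its spots there were repeated values. Without that array its change with the oncogene was -0.68 (adjusted p = 0.0725 by limma). Cd68 stood at 5.38 on a Her2/Neu+/IFNAR1-/- array (next 1.79), at 2.33 on IFNAR1-/- sample 41 (next 0.57) and at 0.78 on WT sample 60 (next 0.18). Mrc1 stood at 1.35, a repeated value, on WT sample 55 (next 4.06).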

How the results depend on the processing

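The changes of the 8 genes in each contrast were refitted under each alternative, 3 of them chosen after seeing the data (repeated and limit values both missing, repeated values missing with at least 2 values left per group, and without the 6 arrays with most repeated values). Of 2797 refitted changes, 21 lost and 11 gained a call and 132 had the other sign. None of the 132 was called in either fit, and 5 had an unadjusted p under 0.05 on 1 side. The 5 came from single C1qc probes: 0.69 in Her2/Neu+ against WT, -0.21 and -0.31 in Her2/Neu+/IFNAR1-/- against Her2/Neu+, and -0.24 and -0.32 for averaged receptor loss. The cause was not tested.

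The count of 1 gene (Csf1r) past the threshold for the averaged oncogene effect was 0 with 1 probe per gene (adjusted p = 0.148), inferred slide as a random block (0.0944), array set 1 alone (0.589), block number as a covariate (0.0515), without the last slide (0.1), without the 6 arrays with most repeated values (0.247) and with each probe fitted separately. It was 2 (Cd14 beside Csf1r) with repeated values missing (with either filter), array weights, repeated and limit values missing, and a threshold of 0.1. Leaving out 1 array gave 0 to 2: Csf1r was lost without Her2/Neu+/IFNAR1-/- samples 105, 108, 109 or 110, Her2/Neu+ sample 119, IFNAR1-/- samples 39, 44 or 50, or WT samples 53, 54, 55 or 60, and Cd14 was gained without Her2/Neu+ samples 114 or 115. In Her2/Neu+ against WT glands the count of 0 became 1 with array weights (Cd14), array set 2 alone (Csf1r, -2.13, against -0.55 in set 1), repeated and limit values missing (Cd14), and ran from 0 to 1 on leaving out 1 array. The only Her2/Neu+ arrays of set 2 were samples 114 and 119, with 2 of 3 and 3 of 3 Csf1r spots repeated. In Her2/Neu+/IFNAR1-/- against Her2/Neu+ glands the count became 1 with each probe fitted separately (C1qc). Beside the 8 genes, the calls for the oncogene held under 9 of 19 settings for Csf1, 16 of 19 for Ccl7, 16 of 19 for Pf4 and 12 of 18 for Epcam, with the direction kept throughout. Leaving out 1 array ended the call for Epcam with 12 of the 30 arrays, for Csf1 with 2 and for Ccl7 and Pf4 with 0. Without the 6 arrays with most repeated values the adjusted p was 0.196 for Csf1, 0.13 for Ccl7, 0.134 for Pf4 and 0.0621 for Epcam. Only 5 of the genes could be fitted with repeated values missing, and 4 with limit values missing too. No paired analysis was possible because the groups share no sample numbers in the labels.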
